A study of Schmidtea mediterranea with 50 samples.

Results

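The p53 tumour suppressor was knocked down by RNA interference (RNAi) in the planarian *Schmidtea mediterranea*, and whole worms were compared with controls on day 18, the last day sampled. All libraries of both groups at that day were taken, 2 of *p53*(RNAi) and 3 of *unc22*(RNAi), which is 5 of 50 in the series. The worms were asexual CIW4, a clonal laboratory line, and were fed bacteria expressing double-stranded RNA in calf liver paste on days 0, 3 and 6. Control worms had the same feeding with double-stranded RNA to *unc22*, a *Caenorhabditis elegans* muscle gene that serves as a neutral sequence in planarians. Each library pooled 10 worms. The study collected 3 biological replicates a group. For *p53*(RNAi) at day 18 only those labelled replicates 2 and 3 were analysed here. The other 45 libraries hold the earlier days of both treatments and a knockdown of the chromatin remodeller *chd4*, and they entered the fit as separate groups.

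Planarians replace all of their tissues from dividing stem cells called neoblasts, the only cells of the asexual worm that divide. A large share of their progeny enters the epidermal lineage, which passes through an early *prog-1* stage and a later *AGAT-1* stage beneath the epidermis before the cells join the surface. In vertebrates p53 is a transcription factor that restrains the cell cycle and responds to DNA damage. In planarians it is expressed in newly made postmitotic cells and in part of the neoblasts, and knockdown was chosen by the study because it removes *AGAT-1* cells.

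Expression was measured by polyadenylated RNA sequencing and deposited as RPKM, reads scaled to transcript length and library size. Recovered depth was 16.7 M to 20.01 M reads (M, 1e6) in transcripts for the 5 libraries. Across genes, log2 values had a Pearson's r of 0.989 between both *p53*(RNAi) libraries, 0.989 to 0.991 between controls and 0.957 to 0.965 between the groups. Levels in *p53*(RNAi) are given for replicate 2 and then replicate 3, control levels for replicates 1 to 3, and log2 changes are *p53*(RNAi) minus control on the log2(RPKM + 0.5) scale, with their standard error and the Benjamini-Hochberg adjusted p of limma. That scale understates the change of low genes. RNA of whole worms cannot tell fewer cells of a type from less RNA per cell.

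The targeted transcript, *p53* (SMED30026364), was at 1.48 and 1.801 RPKM after its knockdown and at 31.1, 32.5 and 31.1 in controls (log2 -3.91, SE 0.19, adjusted p = 6.87e-20). The libraries labelled *p53*(RNAi) thus had low *p53* RNA. The study reports *p53* expression in *smedwi-1*, *prog-1* and *AGAT-1* cells. Whether fewer such cells made up part of the drop was not tested.

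Of 35057 transcripts, 25079 reached 1 RPKM in at least 2 libraries and were tested. At a log2 change beyond 1 with adjusted p below 0.05, 894 transcripts (3.56% of those tested) were lower in *p53*(RNAi) and 382 (1.52%) were higher. These calls are meant below by "fell" and "rose". Without the minimum change, 4834 (19.3%) were lower and 5078 (20.2%) higher, so a small difference was common in both directions. Both *p53*(RNAi) libraries lay below all 3 controls for 6985 transcripts (27.9%) and above them for 7442 (29.7%). The transcripts that fell took 8.04% of all RPKM in controls and 2.42% in *p53*(RNAi). Those that rose took 1.95% and 5.23%. The median log2 change over all transcripts tested was 0.00.

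**Figure D1:**
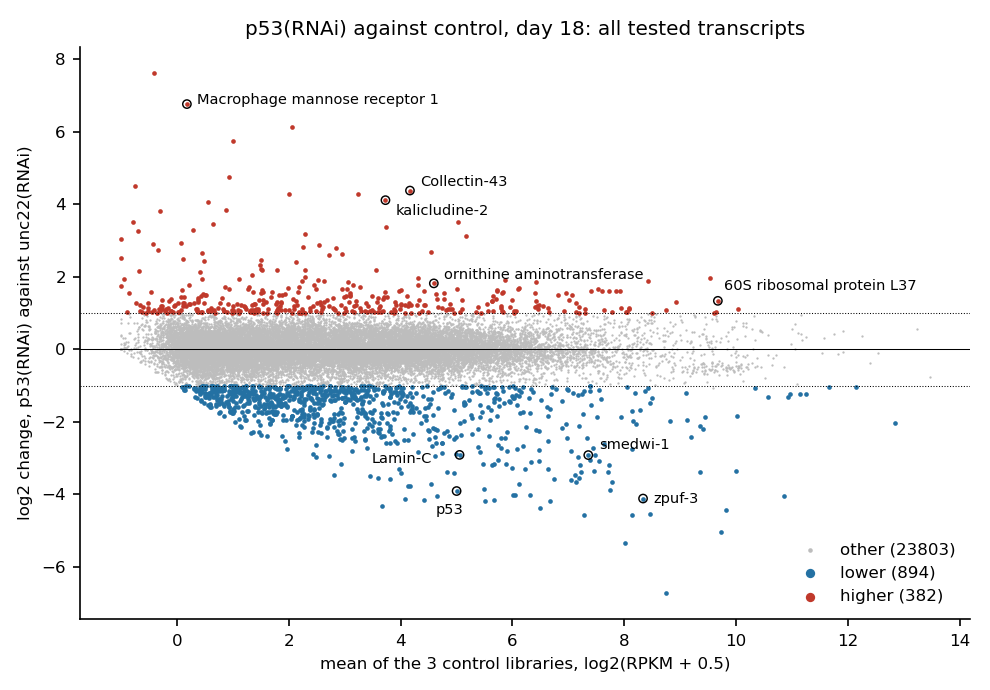
Log2 change of *p53*(RNAi) against *unc22*(RNAi) at day 18 (vertical) by the mean control level in log2(RPKM + 0.5) (horizontal), 1 point for each of 25079 transcripts. The 894 called lower reach -6.72 and include *p53*, zpuf-3 and smedwi-1 at high control levels, while the strongest of the 382 called higher, such as Macrophage mannose receptor 1, had low control levels.

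Swiss-Prot names and in situ patterns are known only for transcripts that the study cloned or listed as changed on these libraries. Counts of members that fell or rose are therefore no independent evidence of a list's direction, and they are read beside the 1595 described transcripts tested, of which 345 fell and 139 rose with a median log2 of -0.49. The study cloned genes for in situ patterns from those lower in both knockdowns, with some lower in *p53*(RNAi) alone. The lists by in situ pattern and of *zpuf* genes were thus chosen as lower, and a lower level of their members is no finding. The described transcripts also hold those the study listed as higher, so they are no like comparison for these lists. Names are those of the most similar Swiss-Prot protein and are not proof of function in planarians.

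Primer pairs for 3 of the transcripts described below show which RNA was followed, the marker of the epidermal lineage, a filament gene that fell at day 18, and a gut transcription factor. They are the cloning primers of the study, 5′ to 3′, with only the gene-specific bases given, in capitals. Their place in the genome is not given, since no genome was used here.
AGAT-1 (SMED30018353) forward: GGATTTCCACCGGTTTTCTGTG
AGAT-1 reverse: AATTGACACGATGTAAGCAGTG
vim-3 (SMED30024865) forward: CGCAGTCAAAACTACGAAACAAG
vim-3 reverse: ATTTAGCAAGGTTTCTAGGCCG
nkx-2.2 (SMED30011793) forward: CAAATGGTGACTGTGTCAAG
nkx-2.2 reverse: CCATGAAGAATTAGAGCCAG

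Neoblast genes were lower throughout. The gene of the PIWI protein *smedwi-1* (SMED30007406), the standard neoblast marker, was at 25.7 and 17.5 RPKM against 162, 167 and 161 in controls (log2 -2.91, SE 0.12, adjusted p = 4.01e-21). Of 10 piwi, tudor and vasa-like transcripts, whose proteins act in small RNA pathways of stem and germ cells, 3 fell, and all 10 had an adjusted p under 0.05. A Piwi-like protein 2 (SMED30014446) was at 75.7 and 73.04 RPKM against 165, 166 and 167 (log2 -1.15, SE 0.05). Its levels across the libraries closely followed those of a Piwi-like protein 1 (SMED30001362). Their sequences were not compared, so whether they share reads is not known. A vasa-like DDX4 helicase (SMED30031463) changed by -1.03, and a tudor domain-containing protein 1 (SMED30005932) by -0.56. Thus *smedwi-1* moved further than the rest of its list, whose median was -0.74. Of 13 transcripts with a neoblast-like in situ pattern, 9 fell (median -1.21), among them a fibroblast growth factor receptor 1 (SMED30034490) at 2.72 and 2.103 against 13.3, 13.4 and 13.2 RPKM (log2 -2.26, SE 0.10) and a zinc finger protein, ZNF341 (SMED30023708) at 2.51 and 1.701 against 14.6, 15.98 and 13.9 (log2 -2.57, SE 0.13). The smallest change of that list was in a glycine-rich protein GRP33 (SMED30031080, log2 -0.65).

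DNA replication genes fell together. Of 37 members, 30 fell and 2 rose, with a median log2 of -1.56, and both *p53*(RNAi) libraries lay below all controls for 35. *PCNA* (SMED30004304), the sliding clamp of DNA polymerases, was at 8.68 and 5.82 RPKM against 37.6, 38.5 and 38.2 (log2 -2.34, SE 0.14, adjusted p = 3.76e-17). The helicase subunit Mcm3 (SMED30026560) was at 2.37 and 1.85 against 14.3, 14.6 and 14.5 (log2 -2.53, SE 0.11), and the origin recognition subunit ORC4 (SMED30031539) at 1.32 and 1.09 against 8.21, 8.51 and 8.85 (log2 -2.41, SE 0.14). A dUTPase (SMED30029980), which keeps uracil out of DNA, changed by -2.49. The 2 that rose, named after their values were seen, were the replication licensing factor Cdt1 (SMED30014686), at 12.6 and 14.1 RPKM against 4.63, 4.67 and 4.41 (log2 1.45, SE 0.09, adjusted p = 5.90e-16), and a dihydrofolate reductase (SMED30007059), an enzyme of thymidine synthesis, at 24.9 and 33.5 against 11.98, 10.8 and 11.4 (log2 1.31, SE 0.10).

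Of 32 mitosis genes 24 fell and none rose, with a median of -1.27. Cyclin-B2 (SMED30005246), which brings cells into mitosis, was at 2.305 and 1.46 RPKM against 11.3, 12.8 and 11.96 (log2 -2.41, SE 0.13, adjusted p = 9.02e-19). Its partner cyclin-dependent kinase 1 (SMED30032688) was at 1.13 and 0.804 against 6.99, 6.07 and 7.47 (log2 -2.33, SE 0.13), and an Aurora kinase (SMED30022145), which acts on the spindle, at 1.76 and 0.719 against 7.36, 8.197 and 6.502 (log2 -2.24, SE 0.21). Of 27 genes for DNA repair and checkpoints, 19 fell and none rose (median -1.36). An ERCC-6-like helicase (SMED30016227) was at 0.918 and 0.499 RPKM against 5.52, 5.05 and 5.25 (log2 -2.28, SE 0.12, adjusted p = 1.39e-18), and exonuclease 1 (SMED30025421), which trims DNA ends, at 0.684 and 0.5397 against 4.14, 4.49 and 3.95 (log2 -2.08, SE 0.13).

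Of 21 chromatin and nuclear lamina genes 5 fell (median -0.73). Lamin-C (SMED30010297), a filament protein of the nuclear envelope, was at 4.47 and 3.43 RPKM against 32.99, 31.3 and 33.9 (log2 -2.91, SE 0.14, adjusted p = 9.52e-20), and the histone chaperone subunit Caf1 (SMED30000072) at 1.85 and 1.43 against 9.904, 9.11 and 9.94 (log2 -2.25, SE 0.12). Of 12 histones 7 fell and none rose, led by histone H2A.J (SMED30002436) at 6.80 and 5.16 RPKM against 43.04, 37.9 and 42.9 (log2 -2.70, SE 0.13) and histone H2A.Z (SMED30030543) at 8.22 and 7.19 against 33.7, 33.4 and 31.5 (log2 -2.03, SE 0.16). The libraries were made from polyadenylated RNA, and replication-dependent histones commonly lack a poly(A) tail in animals, so their levels here may not stand for all of their RNA.

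RNA-processing and ribosomal genes moved less. Of 32 splicing and mRNA-binding genes all had an adjusted p under 0.05 and a lower level, but only 3 fell past the minimum change (median -0.63). A CELF 3-A RNA-binding protein (SMED30023062) was the furthest, at 20.1 and 15.6 RPKM against 85.4, 86.3 and 83.1 (log2 -2.23, SE 0.09), and the splicing factor U1 snRNP C (SMED30021048) followed with log2 -2.14. Of 22 ribosome biogenesis genes 3 fell (median -0.76). Of 34 ribosomal proteins 33 were lower at any size with a median of -0.59, and 2 fell, which became 1 without *p53*(RNAi) replicate 3 or without control replicate 3. A 60S ribosomal protein L5 (SMED30014493) was at 931 and 895 RPKM against 1323, 1293 and 1249 (log2 -0.50), the size typical of the list. A low-level 40S ribosomal protein SA transcript (SMED30028665) was at 0.505 and 0.806 against 3.09, 3.15 and 2.43 (log2 -1.56). The exception was a 60S ribosomal protein L37 (SMED30011412), which rose to 2067 and 2062 RPKM from 843, 805 and 799 (log2 1.34, SE 0.07, adjusted p = 2.78e-18).

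**Figure D2:**
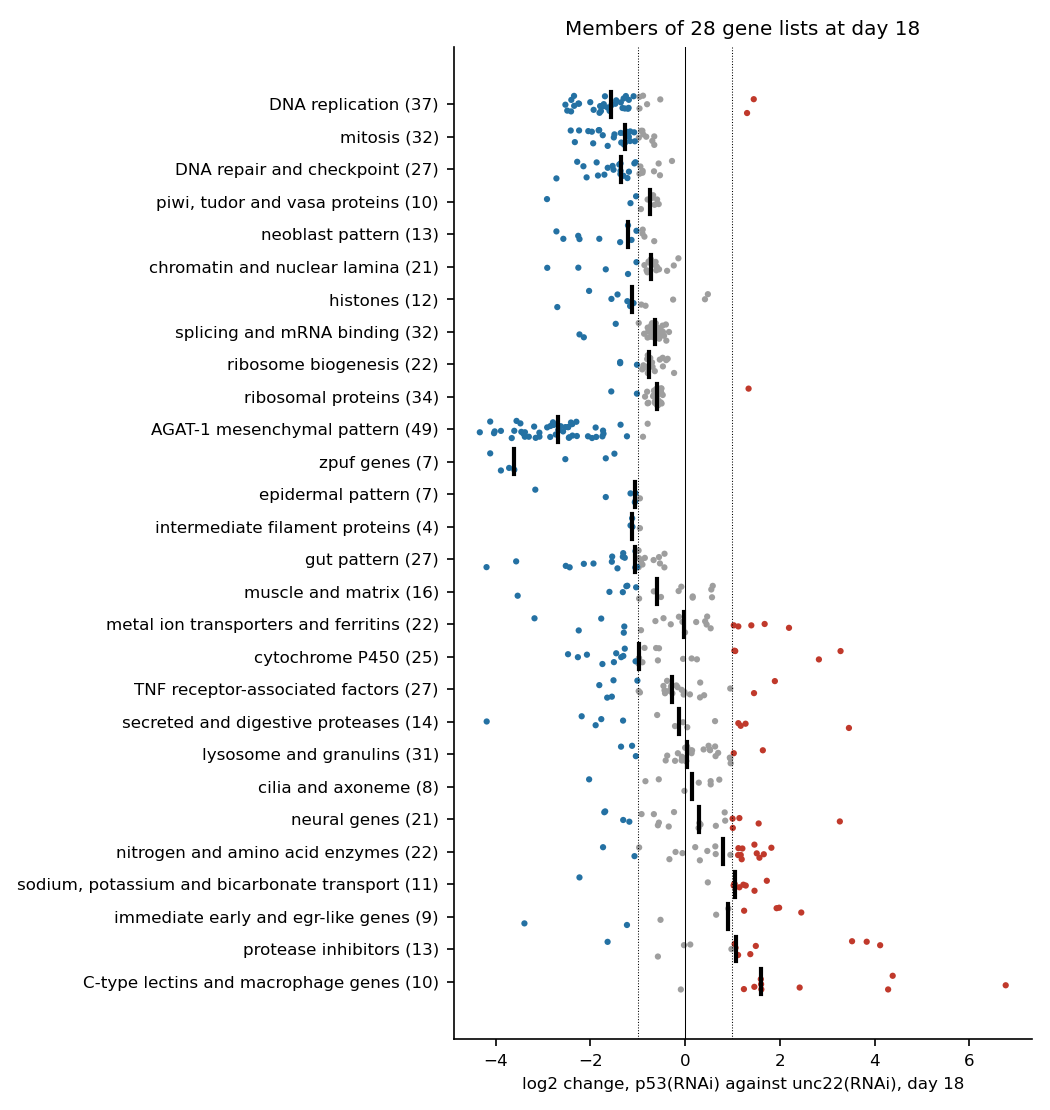
Log2 change at day 18 (horizontal) of each tested member of the 28 gene lists, 1 point a transcript, with the number tested in parentheses and the list median as a black bar. Blue points were called lower, red points higher and grey points neither. Replication, mitosis and repair lie almost wholly below 0, the AGAT-1 mesenchymal list has a median of -2.68, and C-type lectins have a median of 1.61.

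The *zpuf* and *AGAT-1*-like transcripts of the epidermal lineage had the lowest medians of the 28 lists. Their members were cloned by the study from transcripts lower in these libraries, so this rank is in part set by that choice. Of 49 transcripts with an *AGAT-1*-like mesenchymal in situ pattern, 47 fell and the other two were lower at any size, with a median of -2.68. Their summed level was 683 and 532 RPKM against 4545, 4421 and 4187. *AGAT-1* (SMED30018353), an enzyme named for creatine synthesis, was at 30.1 and 21.96 RPKM against 173, 180.1 and 168 (log2 -2.73, SE 0.11). Another glycine amidinotransferase (SMED30009513) had a near-identical expression profile across the libraries and was named outside the rule for this likeness. It was at 28.4 and 18.9 against 180.4, 176 and 177. The sequences of both were not compared, so whether they share reads is not known. At the other end of the list stood a SLC18B1-like transporter (SMED30032538, log2 -0.79) and a fatty acid elongase (SMED30030679, log2 -0.89), which remained at 28.9 and 24.7 RPKM against 50.4, 49.9 and 49.4.

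All 7 *zpuf* genes, which encode small secreted proteins with no known homology, fell, with a median of -3.61. zpuf-3 (SMED30028142) was at 21.3 and 15.4 RPKM against 331, 344 and 292 (log2 -4.11, SE 0.20, adjusted p = 7.64e-20), while *zpuf-6* (SMED30030681), a marker of later cells, was at 136 and 113 against 367, 351 and 336 (log2 -1.49, SE 0.09). Both transcripts described as Early growth response protein 1, a zinc finger transcription factor, that fell did so by unlike amounts. The first (SMED30012332, with no in situ pattern given) was at 2.55 and 1.92 RPKM against 28.1, 29.9 and 26.1 (log2 -3.39, SE 0.10), and *egr-5* (SMED30029873), of the *AGAT-1* list, at 13.3 and 11.7 against 29.1, 32.9 and 27.8 (log2 -1.23, SE 0.07). Sox-8 (SMED30008505), a transcription factor also without an in situ pattern here, was at 0.942 and 0.471 RPKM against 19.3, 22.05 and 20.9 (log2 -4.17, SE 0.21). The polyamine enzyme gene *odc-1* (SMED30027207), an ornithine decarboxylase, was at 13.5 and 9.28 RPKM against 43.7, 43.02 and 40.5 (log2 -1.88).

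Of 7 transcripts with an epidermal in situ pattern 6 fell, which became 3 without *p53*(RNAi) replicate 3, with a median of -1.06. A Calumenin-A (SMED30003044), a calcium-binding protein of the secretory pathway, had the largest change, from 6.101, 6.92 and 8.43 RPKM to 0.422 and 0.281 (log2 -3.16, SE 0.19). Of 4 intermediate filament transcripts 3 fell with both libraries and none past the minimum change without *p53*(RNAi) replicate 3. Their changes were close to the minimum, as for *vim-3* (SMED30024865) at 79.4 and 60.8 RPKM against 154, 157 and 154 (log2 -1.15, SE 0.09, adjusted p = 1.49e-13) and *ifb-1* (SMED30014019) at 114 and 106 against 217, 215 and 207 (log2 -0.95, SE 0.11). Of 8 cilia and axoneme genes 3 were lower and 2 higher at any size, with a median of 0.14, and both *p53*(RNAi) libraries lay above all controls for 4. The 1 that fell was the dynein-associated Tctex1 domain-containing protein 1 (SMED30032837) at 5.03 and 4.13 against 19.6, 21.6 and 19.2 (log2 -2.03). A dynein light chain (SMED30018297) and Tektin-3 (SMED30029546), both parts of cilia, were the others that were lower, at -0.84 and -0.56, and the highest change of the list was 0.72.

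Transcripts with a gut pattern, which the study cloned as down-regulated, were lower too. Of 27 with a gut in situ pattern 16 fell and none rose (median -1.05), and their summed level was 3133 and 2461 RPKM against 6324, 6254 and 5227. A transcript without a description (SMED30027942) was at 6.61 and 3.86 RPKM against 105, 102 and 97.2 (log2 -4.19, SE 0.25). The yolk and lipid carrier Vitellogenin (SMED30003809) was at 9.04 and 8.02 against 103, 109 and 107 (log2 -3.57, SE 0.26). The gut transcription factor *nkx-2.2* (SMED30011793) was at 28.2 and 18.4 RPKM against 69.4, 68.7 and 63.3 (log2 -1.54, SE 0.16, adjusted p = 2.68e-10), and the fatty acid ligase gene *acsl-1* (SMED30005508) at 17.7 and 15.8 against 80.2, 79.6 and 66.9 (log2 -2.14, SE 0.12). The zinc finger gene *zfp-2* (SMED30002213) was the least changed, at 28.4 and 27.6 against 38.7, 39.9 and 35.8 (log2 -0.44). In another list, that of muscle and matrix, Tenascin-X (SMED30004081) was at 14.1 and 10.5 RPKM against 158, 149.9 and 131 (log2 -3.53, SE 0.22), and Hemicentin-1 (SMED30024938), a basement membrane protein, at 15.5 and 14.9 against 47.8, 46.96 and 46.2 (log2 -1.60). In all, 6 of 16 muscle and matrix members fell and none rose (median -0.59), and their summed level was 551 and 579 RPKM against 745, 742 and 678.

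Transcripts without a description made up 549 of the 894 that fell and 243 of the 382 that rose, and they held the largest changes in both directions. The transcript SMED30011419 was at 4.22 and 2.98 RPKM against 431, 439 and 411 (log2 -6.72, SE 0.47, adjusted p = 4.64e-15). Next came SMED30035904 at 5.53 and 6.197 against 257, 258 and 261 (log2 -5.35) and SMED30014876 at 33.9 and 18.4 against 823, 870.1 and 838 (log2 -5.05). The transcripts SMED30009302 and SMED30020396 followed with log2 -4.58 and -4.57. Upward, SMED30022734 went from 0.389, 0.3799 and 0 RPKM to 113 and 183 (log2 7.62, SE 0.34, adjusted p = 7.30e-21), SMED30003738 from 4.29, 3.56 and 3.21 to 245 and 342 (log2 6.12), and SMED30013580 from 2.53, 1.45 and 0.504 to 80.3 and 115 (log2 5.74). For SMED30028552 both *p53*(RNAi) libraries were far apart, at 21.8 and 113 against 1.93, 0.824 and 1.499. Where controls are near 0 the fitted change depends on the pseudocount of 0.5. No known protein or domain is given for these transcripts in the sources used here.

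**Figure D3:**
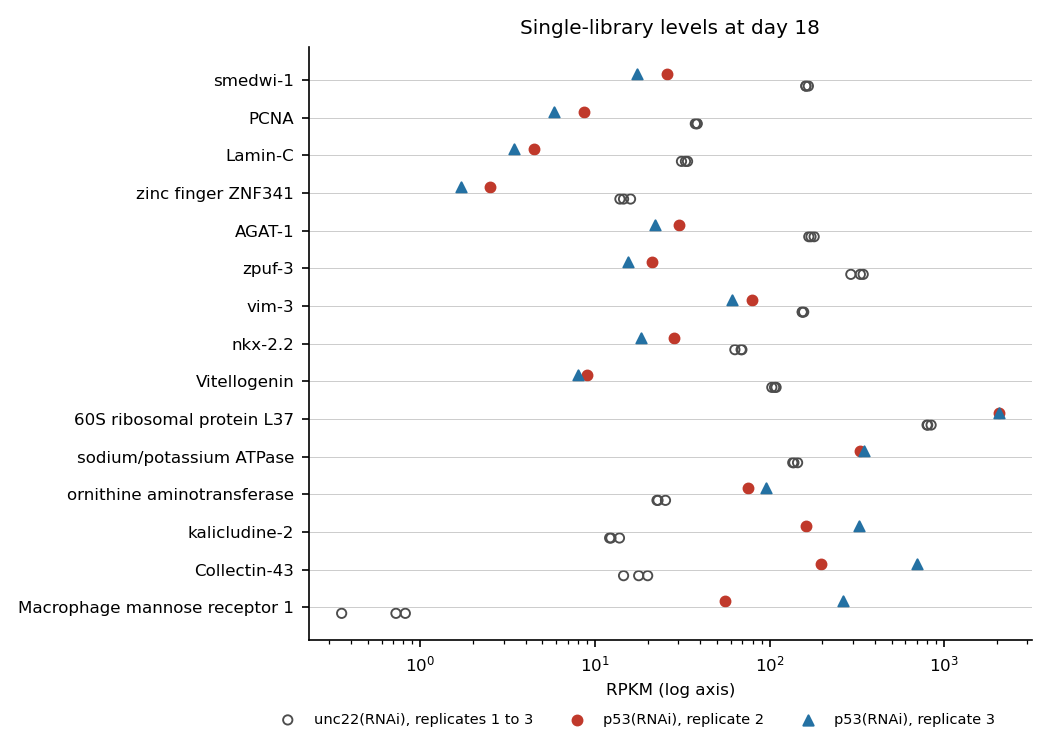
RPKM on a log axis (horizontal) of 15 named transcripts in each of the 5 libraries at day 18, with controls as open circles, *p53*(RNAi) replicate 2 as red circles and replicate 3 as blue triangles. The groups do not overlap in any of the 15. In several, replicate 3 lies beyond replicate 2 by more than the controls' own spread in RPKM. Among these are smedwi-1, PCNA, vim-3, kalicludine-2, Collectin-43 and Macrophage mannose receptor 1.

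The largest rises among described transcripts were in C-type lectins, proteins that bind sugars and, in vertebrates, take part in innate immunity. Of 10 such transcripts 9 rose and none fell, with a median of 1.61. A Macrophage mannose receptor 1 (SMED30007501) was at 55.3 and 263 RPKM against 0.724, 0.354 and 0.8195 (log2 6.77, SE 0.40, adjusted p = 2.49e-17). Collectin-43 (SMED30003676) was at 198 and 696 against 17.8, 14.6 and 20.04 (log2 4.38, SE 0.34), and Collectin-11 (SMED30024391) at 44.3 and 136 against 3.87, 3.48 and 3.23 (log2 4.28, SE 0.29). In these 3, replicate 3 was the higher of both *p53*(RNAi) libraries by more than the whole spread of the controls. Versican core protein (SMED30020539), a matrix protein with a lectin domain, was at 17.9 and 27.6 against 5.38, 2.85 and 3.402 (log2 2.42). A trio of similar mannose receptor transcripts (SMED30011012, SMED30029767 and SMED30008073, of which the last was named for its likeness) changed by 1.60, 1.61 and 1.60. The first was at 618 and 669.8 RPKM against 215, 219 and 201. The sequences of this trio were not compared, so they may share reads and may not be separate observations.

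Protease inhibitors rose as well, 8 of 13 with 1 lower (median 1.06). Several are Kunitz-type, small proteins that block serine proteases and were in part named from sea anemone toxins. Kalicludine-2 (SMED30016139) was at 162 and 325 RPKM against 13.8, 12.3 and 12.1 (log2 4.12, SE 0.26, adjusted p = 2.50e-16). Another BPTI/Kunitz domain protein (SMED30015120) was at 298 and 441 against 43.9, 28.7 and 23.7 (log2 3.52, SE 0.23), and the Kunitz inhibitor InhVJ (SMED30021397) at 23.6 and 28.2 against 1.36, 1.33 and 1.35 (log2 3.83, SE 0.36). A Kunitz inhibitor 3 (SMED30017004) was at 361 and 275 against 127, 110.2 and 100.0 (log2 1.49). Of another class, Pregnancy zone protein (SMED30020669), a broad protease trap, changed by 1.38. The 1 that fell was Peptidase inhibitor 15-A (SMED30015313, log2 -1.64). Proteases split, with 5 of 14 tested lower and 4 higher of 16 in the list. Plasminogen (SMED30019873), the precursor of a clot-dissolving protease in vertebrates, went from 1.504, 1.01 and 0.704 RPKM to 15.1 and 17.9 (log2 3.46, SE 0.21), Neurotrypsin (SMED30005872), a secreted serine protease, from 46.96, 45.8 and 41.9 to 2.27 and 1.73 (log2 -4.19, SE 0.23), and elastase 1 (SMED30031112), a digestive protease, from 14.7, 13.5 and 12.3 to 2.81 and 2.34 (log2 -2.18, SE 0.17).

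Enzymes of nitrogen metabolism formed a further group, with 10 of 22 that rose and 2 that fell (median 0.80). The 2 became 1 without *p53*(RNAi) replicate 3. The 5 with the largest rise are enzymes of glutamate, ornithine and ammonia. Pyrroline-5-carboxylate synthase (SMED30005571) was at 335 and 399.8 RPKM against 128, 129 and 113 (log2 1.57, SE 0.09, adjusted p = 4.99e-18). An ornithine aminotransferase (SMED30023510) was at 75.05 and 95.7 against 25.3, 22.97 and 22.7 (log2 1.82, SE 0.08), and a second (SMED30012193) at 189.8 and 244 against 66.1, 69.4 and 67.9 (log2 1.66, SE 0.09). Glutamine synthetase (SMED30031855), which fixes ammonia, was at 348 and 416 RPKM against 133, 139 and 128 (log2 1.51, SE 0.08), and carbamoyl-phosphate synthase (SMED30029235), the entry to the urea cycle, at 126 and 152 against 48.9, 51.5 and 48.9 (log2 1.46, SE 0.07). Of the later urea cycle enzymes, ornithine carbamoyltransferase (SMED30028596) changed from 28.3, 29.6 and 26.8 RPKM to 58.2 and 66.2 (log2 1.13). Argininosuccinate synthase (SMED30011140), which also has an *AGAT-1*-like pattern, fell from 45.6, 43.4 and 40.5 to 13.2 and 12.1 (log2 -1.73), and argininosuccinate lyase (SMED30030034) was at 18.4 and 16.8 against 35.8, 35.5 and 33.5 (log2 -0.97), under the minimum change. The first and the last of these were named after their values were seen.

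Of 11 transcripts for sodium, potassium and bicarbonate transport 9 rose and 1 fell (median 1.04). A sodium/potassium ATPase (SMED30010123), the pump that sets up the membrane gradient, was at 331 and 348 RPKM against 138, 145 and 136 (log2 1.28, SE 0.06, adjusted p = 4.96e-21), and a weakly expressed second (SMED30028977) at 6.38 and 8.73 against 1.47, 2.39 and 1.97 (log2 1.72). An Excitatory amino acid transporter 2 (SMED30008388), which takes up glutamate with sodium, was at 22.6 and 23.5 against 8.14, 8.96 and 7.07 (log2 1.46). Sodium/hydrogen exchangers went both ways, with SMED30000707 at 35.8 and 38.4 against 14.8, 15.96 and 15.8 (log2 1.23) and SMED30001068 at 5.49 and 4.25 against 24.4, 22.7 and 26.5 (log2 -2.23). Of 22 metal ion transporters and ferritins 5 rose, which became 3 without *p53*(RNAi) replicate 3, and 5 fell. Zinc transporter 10 (SMED30008023) was at 14.6 and 15.7 RPKM against 2.37, 2.95 and 3.55 (log2 2.19, SE 0.16) and the metal tolerance protein 5 (SMED30003881) at 25.5 and 25.99 against 7.97, 8.89 and 6.42 (log2 1.68, SE 0.10). The iron store Ferritin, lower subunit (SMED30027587) was at 6.57 and 4.53 against 27.3, 26.96 and 29.1 (log2 -2.25), and copper uptake protein 1 (SMED30021535) changed by -1.77.

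Transcription factors of the immediate early class rose in part. Of 9 such and EGR-like transcripts 4 rose and 2 fell, the 2 being the pair described above. *egr-3* (SMED30009224) was at 7.91 and 6.39 RPKM against 0.689, 0.972 and 1.04 (log2 2.45, SE 0.22, adjusted p = 4.88e-12), and an Early growth response protein 4 (SMED30029780) at 19.3 and 17.5 against 2.87, 5.38 and 4.99 (log2 1.98, SE 0.22). *fos-1* (SMED30013808) at 70.8 and 74.5 against 39.97, 37.8 and 37.3 (log2 0.91) and *jun-1* (SMED30001802) at 34.8 and 35.6 against 22.3, 23.8 and 20.4 (log2 0.66) had an adjusted p under 0.05 and a change under the minimum. Controls of *egr-3* were lower at day 18 than at day 15, where they had a mean of 4.73 ± 0.235 RPKM (SD, n = 3).

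Detoxification and signalling families moved both ways. Of 25 cytochrome P450 transcripts, oxidases of small molecules, 10 fell and 4 rose, which became 2 without *p53*(RNAi) replicate 3 (median -0.97). CYP2C37 (SMED30017065) went from 0.644, 0.6896 and 0.833 RPKM to 9.16 and 14.05 (log2 3.28, SE 0.21) and CYP2C50 (SMED30003013) from 4.195, 4.23 and 4.45 to 30.3 and 36.9 (log2 2.82, SE 0.13). CYP2A3 (SMED30026757) went from 7.03, 6.41 and 7.32 to 1.43 and 1.11 (log2 -2.07, SE 0.13), and *cyp3142A1* (SMED30031568), of the *AGAT-1* list, from 32.2, 29.1 and 30.5 to 5.67 and 4.59 (log2 -2.47, SE 0.10). Of 27 TNF receptor-associated factors, adaptors of inflammatory receptors, 5 fell and 2 rose (median -0.28). TRAF6 (SMED30003035) was at 15.2 and 19.03 RPKM against 4.74, 4.21 and 3.74 (log2 1.89) and TRAF3 (SMED30002663) at 36.8 and 36.1 against 13.3, 13.4 and 12.3 (log2 1.45), whereas TRAF4 (SMED30025885) was at 0.894 and 0.305 against 3.13, 3.34 and 3.18 (log2 -1.81).

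Of 31 lysosome and granulin transcripts 3 fell and 2 rose, the 2 becoming 4 without *p53*(RNAi) replicate 2 (median 0.04). The lipid-handling Prosaposin (SMED30012451) was at 142 and 139.9 RPKM against 377, 322 and 385 (log2 -1.35), and Granulins (SMED30005855), a secreted growth factor precursor, at 2.35 and 3.25 against 0.611, 0.326 and 0.755 (log2 1.64). Of 21 neural genes 4 fell and 5 rose, and their summed level was nearly level at 275 and 286 RPKM against 255, 261 and 253. The 5 became 3 without control replicate 3. The vesicle proteins Synaptotagmin-7 (SMED30000412) at 4.24 and 6.85 against 0.102, 0.166 and 0.0771 RPKM (log2 3.27, SE 0.22) and Synaptotagmin-1 (SMED30028321) at 0.0951 and 0.0844 against 1.34, 1.38 and 1.56 (log2 -1.71, SE 0.18) moved in opposite directions. So did the receptors Glycine receptor alpha-3 (SMED30006403, log2 1.55) and AChR alpha-like 1 (SMED30034555, log2 -1.69). Outside these lists, Ubiquitin-60S ribosomal protein L40 (SMED30007461) was at 116 and 193 RPKM against 24.5, 23.7 and 20.4 (log2 2.69, SE 0.15, adjusted p = 8.07e-18), and a tocopherol transfer protein-like transcript (SMED30017805), which binds vitamin E in mammals, at 6.77 and 9.71 against 1.004, 0.8296 and 0.757 (log2 2.66).

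Levels at day 18 were set against earlier days of the same treatments. By the same criteria 43, 130, 371, 384 and 564 transcripts were lower on days 3, 6, 9, 12 and 15, and 4, 8, 95, 107 and 134 were higher. Of the 894 lower at day 18, 446 were already called at day 15 and 423 were first called at day 18. Of the 382 higher, 90 were called at day 15 and 276 were first called at day 18. Each day has its own control libraries.

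Lists differed in when they moved, here counted at any size with an adjusted p under 0.05. For *AGAT-1*-like transcripts 29 of 49 were lower by day 3, when 0.694% of all transcripts were lower and 0.0797% higher, and all 49 from day 6 on. Of the 1595 described transcripts, 62 were lower and 1 higher at day 3. Of all 25079 tested, 538 were lower and 270 higher at day 6. The median of the *AGAT-1*-like transcripts was -0.48 at day 3 and -2.35 at day 15. Replication genes went the other way first. At day 9, 24 of 37 were higher, against 12.3% of all transcripts higher and 11.5% lower, with a median of 0.34. Their median was -0.27 at day 12 and -0.80 at day 15, when 18.2% of all transcripts were lower and 16.2% higher. Mitosis genes followed the same course, with 19 of 32 higher at day 9 and medians of 0.25 and -0.73 at days 9 and 15. *smedwi-1* changed by 0.36 at day 9 and -1.38 at day 15. Among neoblast-pattern genes, the receptor and zinc finger ZNF341 did not show that early rise, with -0.75 and -0.68 at day 3. When libraries were weighted by quality, *p53*(RNAi) replicate 1 of day 9 had the lowest weight of all 50 libraries. It was 0.189, against 0.673 and 1.12 for replicates 2 and 3 of that day. No day 9 value given in the text was refitted without that library.

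**Figure D4:**
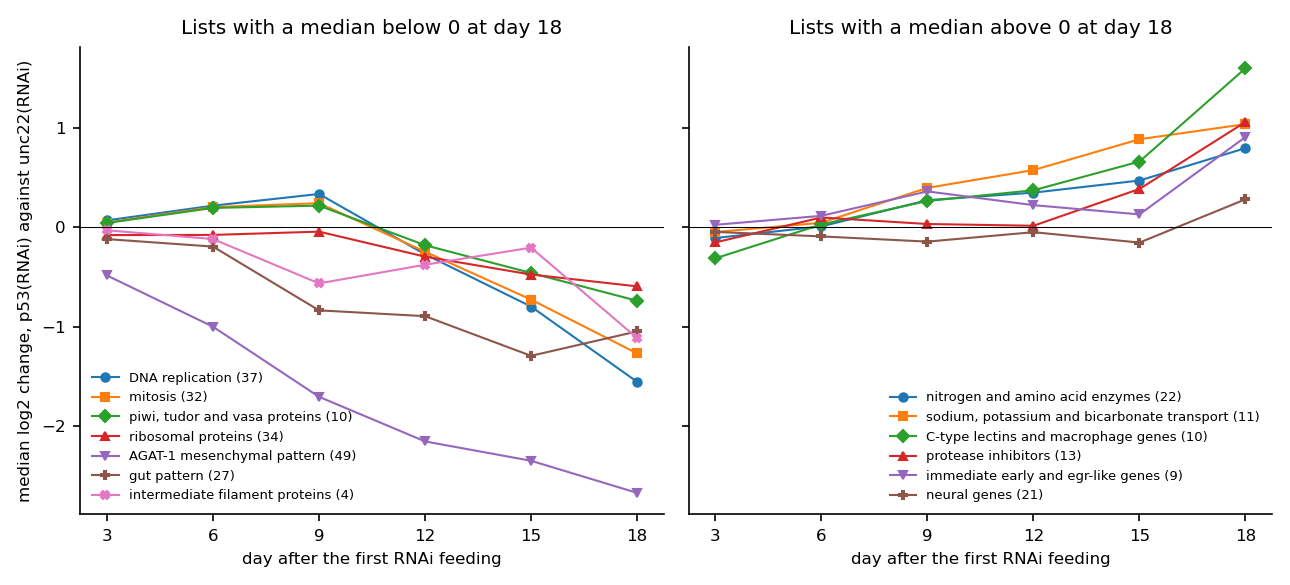
Median log2 change of *p53*(RNAi) against the control of the same day (vertical) over days 3 to 18 after the first feeding (horizontal) for 13 lists, with the number of transcripts in parentheses. AGAT-1-like transcripts decline from day 3, replication and mitosis genes are above 0 up to day 9 and end at -1.56 and -1.27, and C-type lectins go from 0.66 at day 15 to 1.61 at day 18.

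The change from day 15 to day 18 was tested as a contrast of both differences. With a change beyond 1 it was lower for 102 transcripts (0.407%) and higher for 98 (0.391%). At any size it was lower for 608 (2.42%) and higher for 834 (3.33%). Without *p53*(RNAi) day 18 replicate 2 the 102 became 180. Proliferation genes fell further within these days. At any size the contrast was lower for 27 of 37 replication genes, 21 of 32 mitosis genes and 16 of 27 repair genes. It was -1.44 for *PCNA* (SE 0.19, adjusted p = 8.65e-07), -1.78 for Lamin-C, -1.72 for histone H2A.J and -1.52 for cyclin-B2. *PCNA* at day 15 had a mean of 19.4 ± 2.796 RPKM in *p53*(RNAi) against 36.4 ± 2.71 in controls (SD, n = 3 each). All 4 intermediate filament transcripts were lower by this contrast too, among them *vim-3* at -0.94. Their median log2 change had been -0.56 at day 9, -0.38 at day 12 and -0.20 at day 15. The contrast thus starts from a day 15 difference that was smaller than on those earlier days. For SMED30032293, at 6.101 and 2.37 against 85.7, 81.8 and 102 RPKM at day 18, the contrast was -1.87, and -1.27 (adjusted p = 0.128, limma) without *p53*(RNAi) replicate 3.

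Of the 10 lectins, 5 were higher at any size at day 9 and 6 at day 15, and the contrast from day 15 to day 18 was higher for 9. Macrophage mannose receptor 1 had 6.82 ± 1.75 RPKM at day 15 against 1.22 ± 0.625 in controls, and its contrast was 4.64 (SE 0.53, adjusted p = 7.82e-08). It was also positive for Collectin-11 (3.71), Collectin-43 (3.19), the Kunitz domain protein SMED30015120 (3.08) and Plasminogen (2.80). Collectin-43 was already higher by 1.53 at day 9 and 1.19 at day 15. Synaptotagmin-7, with 0.0774 ± 0.0446 RPKM in *p53*(RNAi) at day 15 (SD, n = 3) and 0.143 ± 0.0659 in controls, gave 3.42. CYP2C37 gave 2.47 and Ubiquitin-60S ribosomal protein L40 gave 1.81. For *egr-3* the contrast was 2.24, with *p53*(RNAi) at 5.58 ± 0.631 RPKM at day 15, and its controls, given above, were lower at day 18 than at day 15. Among undescribed transcripts the contrast was 6.54 for SMED30022734, 5.03 for SMED30003738, 4.47 for SMED30013580 and 4.50 for SMED30029247, which was at 7.87 and 20.4 RPKM against 0.291, 0 and 0 at day 18 and at 0 in all 6 libraries of day 15. Of the 22 nitrogen enzymes 15 were higher and 5 lower at any size at day 15 (median 0.47), and the ornithine aminotransferase SMED30023510 was higher by 1.13 at day 9 and 1.57 at day 15.

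**Figure D5:**
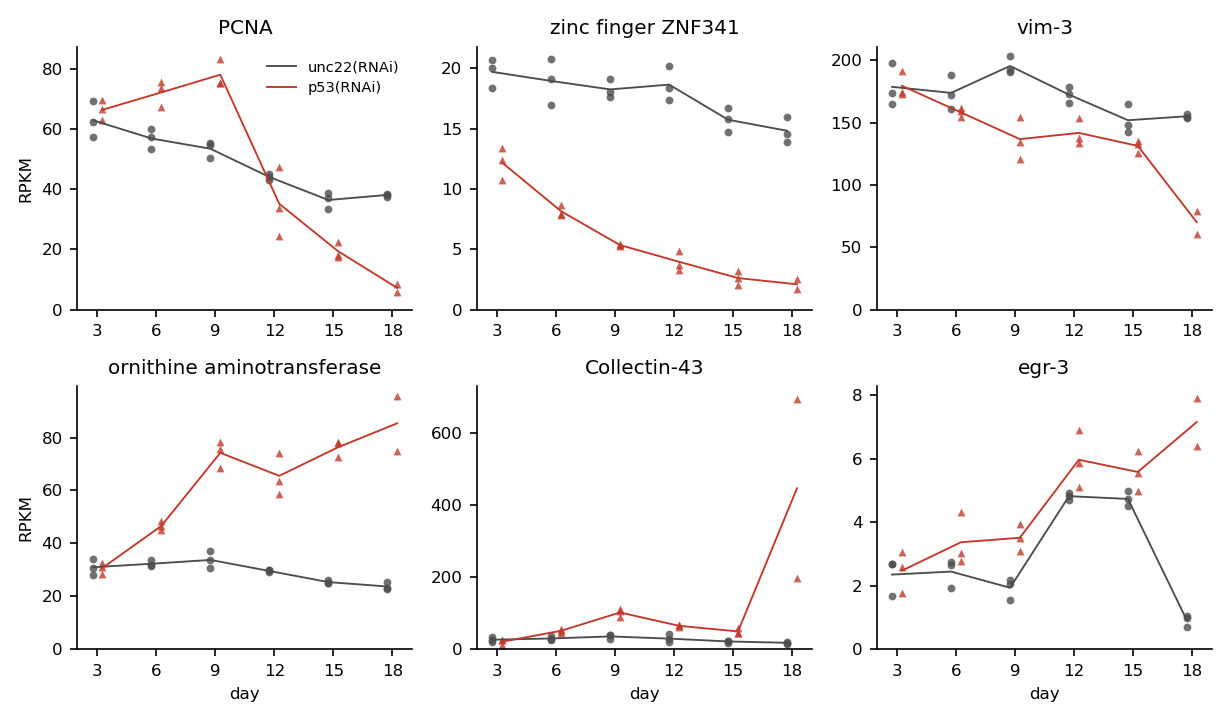
RPKM (vertical) by day (horizontal) of 6 transcripts in every *p53*(RNAi) (red triangles) and *unc22*(RNAi) library (grey circles), with lines through group means. The PCNA mean is above that of controls at day 9 and below it from day 12, zinc finger ZNF341 is below throughout, Collectin-43 reaches 198 and 696 RPKM only at day 18, and egr-3 differs from its controls most at day 18, where the controls are low.

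Last, the day 18 difference was set against that of *chd4*(RNAi) at day 15, the last day of that treatment. The days differ, and each has its own controls. With a change beyond 1, the *p53*(RNAi) difference was lower for 732 transcripts (2.92%) and higher for 768 (3.06%). At any size it was lower for 2715 (10.8%) and higher for 3265 (13%). Proliferation genes were lower after *p53*(RNAi) by this contrast in 35 of 37 replication and all 32 mitosis genes, and their medians in *chd4*(RNAi) were -0.10 and -0.04. *PCNA* gave -2.18 (SE 0.19, adjusted p = 2.71e-12), zinc finger ZNF341 -2.78 and the Early growth response protein 1 -3.07. All 12 histones were lower, with a *chd4*(RNAi) median of 1.78. A histone H3 (SMED30021776), at 0.0952 and 0 RPKM against 0.8103, 1.58 and 1.01 at day 18, had a mean of 40.6 ± 1.25 in *chd4*(RNAi) at day 15 against 0.709 ± 0.136 in controls (SD, n = 3 each), and a contrast of -6.65. Histone H2B.1/H2B.2 (SMED30021461), at 1.72 and 0.764 against 4.12, 3.49 and 4.46 at day 18, gave -4.16.

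Gut genes differed in the opposite sense, with the contrast higher for 26 of 27 and a *chd4*(RNAi) median of -2.78. *nkx-2.2* had a mean of 3.38 ± 0.482 RPKM in *chd4*(RNAi) against 69.1 ± 2.79 in its controls, and gave 2.63 (SE 0.22, adjusted p = 9.11e-13). The lipid carrier Apolipophorins (SMED30020296), at 159 and 139 RPKM against 234, 255 and 229 at day 18, had 3.197 ± 0.899 in *chd4*(RNAi) and gave 5.29. A LRR-containing protein C (SMED30016695) at 33.3 and 21.8 against 58.03, 57.7 and 51.3 gave 5.02, and the aldehyde dehydrogenase ALDH8A1 (SMED30028611) at 26.2 and 19.1 against 63.6, 62.5 and 56.7 gave 4.83. Tenascin-X gave 2.52. An L-cysteine desulfhydrase (SMED30027034), at 12.3 and 8.48 against 60.002, 58.4 and 54.4 at day 18 (log2 -2.44), had a log2 of -6.51 in *chd4*(RNAi). Kalicludine-2 was higher after *p53*(RNAi) (3.47). The nitrogen enzymes (18 of 22) and sodium, potassium and bicarbonate transporters (11 of 11) were higher by the same contrast, with *chd4*(RNAi) medians of -0.50 and 0.27. Among undescribed transcripts, SMED30011419 gave -5.50 and SMED30032293 gave -5.49.

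Replicate 3 was lower than replicate 2 in 667 of the 894 transcripts that fell and higher in 300 of the 382 that rose. It was the lower of both in 13605 of all 25079 transcripts tested. Their levels were over 2-fold apart in 136 of the first and 22 of the second, with replicate 3 the higher in 46 and 19. With 2 libraries against 3, an exact permutation test of a single transcript has 10 splits and cannot go below p = 0.1, so every p above rests on the spread that limma shares across all 17 groups.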

How the data were processed

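Whole-worm RNA of 5 libraries, 2 of *p53*(RNAi) and 3 of *unc22*(RNAi) at day 18, was compared. The authors made stranded TruSeq libraries, called bases with CASAVA 1.8.2, aligned reads with Bowtie (version not given in the sources used here), tested counts with edgeR and deposited RPKM values. Reads and counts were not analysed here. RPKM steps of 1 read gave relative depth and the length of 98.5% of transcripts.

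All 50 libraries in 17 groups were fitted with limma 3.58.1 (R 4.3.3, intensity trend) on log2(RPKM + 0.5), since a pair of libraries alone gives a poor estimate of the spread. Transcripts needed 1 RPKM in 2 libraries. Moderated two-sided tests were adjusted by Benjamini-Hochberg over all transcripts tested. On simulated data with normally distributed noise, 100% of transcripts changed by a log2 of 1.5 or 2 were called. Only transcripts with a mean log2(RPKM + 0.5) above 2 were changed. The share called among lower transcripts, or for smaller changes, was therefore not measured. Tables were handled with pandas 2.3.3.

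Members and lists (28, with 530 transcripts) were chosen with earlier results of these data known. Genes were named by a rule: those the study names, the largest changes per direction, the largest and smallest of each list, and the largest in the contrasts. Several genes within this rule were left out of the text, among them a Multidrug resistance-associated protein 1 (SMED30000258), *adss*, *slc25a-19*, *zpuf-5*, *zpuf-7* and *cyp3G1*. Some with the smallest change of a list were left out too and had no adjusted p under 0.05 at day 18 (limma). Examples are a sphingomyelinase-like phosphodiesterase (SMED30000819, log2 0.02, adjusted p = 0.850) and kynurenine formamidase (SMED30003475, log2 -0.06, adjusted p = 0.644). Replicates were separate pools of worms. Alternatives were 2 other pseudocounts, no filter, the compared groups alone, no intensity trend, median-ratio scaling, library weights, a replicate block and leaving out each library.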

Additional observations from a re-analysis of the deposited data

Results flagged for a closer look

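Differences of the *p53*(RNAi) effect between days and between knockdowns were tested as contrasts (limma, log2 scale, adjusted over all transcripts). Between day 18 and day 15 the difference from control became more negative for Lamin-C (-1.78), histone H2A.J (-1.72), cyclin-B2 (-1.52), PCNA (-1.44), vim-3 (-0.94) and SMED30032293 (-1.87). It became more positive for SMED30022734 (6.54), SMED30003738 (5.03), SMED30029247 (4.50) and SMED30013580 (4.47), none of them with a description. The same held for Macrophage mannose receptor 1 (4.64), Collectin-11 (3.71), Synaptotagmin-7 (3.42), Collectin-43 (3.19), the BPTI/Kunitz domain protein (3.08) and Plasminogen (2.80). It also held for CYP2C37 (2.47), egr-3 (2.24) and Ubiquitin-60S ribosomal protein L40 (1.81). For egr-3 the control mean went from 4.73 RPKM at day 15 to 0.900 at day 18. Its *p53*(RNAi) mean went from 5.58 to 7.15.

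Against *chd4*(RNAi) at day 15, each knockdown set against the controls of its own day, the *p53*(RNAi) day 18 difference was lower for histone H3 (-6.65), histone H2B.1/H2B.2 (-4.16), SMED30011419 (-5.50), SMED30032293 (-5.49), Early growth response protein 1 (-3.07), zinc finger ZNF341 (-2.78) and PCNA (-2.18). It was higher for Apolipophorins (5.29), LRR-containing protein C (5.02), ALDH8A1 (4.83), kalicludine-2 (3.47), nkx-2.2 (2.63) and Tenascin-X (2.52).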

How the results depend on the processing

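All 120 named genes kept their direction and an adjusted p under 0.05 at day 18 under the 13 alternatives run, as did all of their contrasts but that of SMED30032293 from day 15, at -1.27 (adjusted p = 0.128) without *p53*(RNAi) day 18 replicate 3. These 120 are the genes the text names. Genes of the naming rule without an adjusted p under 0.05 that were left out are not among them. The full count of 120 therefore reflects in part which genes were kept. With a pseudocount of 2 in place of 0.5 there were 447 lower and 216 higher transcripts at day 18. The contrast with day 15 then gave 23 lower and 73 higher, and that with *chd4*(RNAi) gave 345 lower and 468 higher. With 0.1 the contrast with day 15 gave 198 lower and 105 higher, and day 18 gave 1217 lower and 524 higher. A larger pseudocount shrinks the change of low transcripts. With 1 library left out, 863 to 1014 were lower and 357 to 463 higher at day 18. In the contrast with day 15 these ranges were 78 to 180 lower, the 180 being without *p53*(RNAi) day 18 replicate 2, and 80 to 124 higher. In the contrast with *chd4*(RNAi) they were 699 to 753 lower and 745 to 805 higher. Where such a fit left a single *p53*(RNAi) library, its spread was taken from the other groups. List counts and the contrasts of named genes under these alternatives were added after the data were seen. Of 728 list counts, 22 moved by over 1.5 times, 11 of them with a pseudocount of 2.

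The deviations of same-numbered libraries from their group means at day 18 had correlations of 0.00719 and 0.0488. With 2 *p53*(RNAi) libraries these deviations mirror each other. The check therefore cannot tell whether the replicate numbers pair the samples. With the replicate block, 902 transcripts were lower and 407 higher at day 18, 105 lower and 105 higher than at day 15, and 752 lower and 788 higher than after *chd4*(RNAi). Transcripts near 1 RPKM rest on few reads, so a change there is less firm than at higher levels.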
